A study of Mus musculus with 11 samples.

Results

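The comparison described here is the array labelled VA_MEF minus the array labelled 3T3, the 2 arrays of the series whose labels name fibroblasts. They were taken by their labels from 11 mouse arrays, and 7088 of the 7114 genes with a single symbol had a value on both. Each sample was hybridised to a 2-colour cDNA array, its own RNA in Cy3 and a mouse embryo reference RNA in Cy5. The RNA was extracted with Trizol and labelled by incorporating dye-carrying dCTP during reverse transcription. VA_MEF (cell type code BAKE) and 3T3 (cell type code 3T3) had 1 array each, so no replicate error, test or p-value could be given for any difference. MEF usually stands for mouse embryonic fibroblast, and 3T3 is a long-established line of such cells. The labels give neither array a treatment, genotype, strain, age or number of animals, and do not say what VA stands for.

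A level below is the log2 ratio of a sample's own RNA over the embryo reference, after each array was centred on its median. A difference is the level in VA_MEF minus the level in 3T3, so 1 is 2-fold and a positive value is higher in VA_MEF. The same reference RNA stood on both arrays, so it drops out of the difference. The direction of the deposited ratio is not given in the sources used here. For each of 4 organ gene lists, the array farthest from the median of the 11 lay on the negative side of the deposited values, at -7.39 for liver, -6.50 for lung, -4.55 for heart and -4.20 for kidney genes. Of these, only the kidney list was farthest on the array of its own label. The liver list was farthest on the array labelled Lung, the lung list on the array labelled Liver and the heart list, of 2 genes, on the array labelled Melan A, while the arrays of their own labels lay at -0.41, -1.08 and 0.18. The labels Heart, Liver, Lung and Melan A thus go against these markers, and are used below only as names. These lists do not test the labels VA_MEF and 3T3. Because organ genes are known to be high in 1 organ and low elsewhere, the table was read, as likely but not stated, as the ratio of reference to own RNA, and all values were negated. The titles put the sample before the reference, which runs against this reading. If the titles hold, every signed value below changes sign: the matrix genes would be higher in VA_MEF and the stress genes lower.

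Fibroblasts are the connective tissue cells that build the extracellular matrix. They secrete collagens, proteoglycans and the enzymes that process them, and hold the matrix through integrins tied to contractile actin fibres. All secreted proteins are folded in the endoplasmic reticulum (ER). When unfolded protein builds up there, 3 sensors, Atf6, Ern1 (IRE1) and the kinase PERK, start the unfolded protein response. Atf6 and Xbp1, the factor made active by Ern1, switch on chaperones through promoter sites such as the ER stress element. PERK slows translation and raises Atf4, which switches on genes of amino acid supply.

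Many fibroblast and matrix genes were lower in VA_MEF, and many chaperones and other genes of the unfolded protein response were higher. Among single genes, Rab38 and Mlph of pigment granule transport had the second and the third highest difference, while most of the melanocyte list lay within 2-fold. The ER stress element as searched here is CCAAT, then 9 bases, then CCACG. It was looked for on both strands of 32851 RefSeq promoter windows (assembly GRCm38.p6, 250 bases before to 50 after each start). It was found in 39 of them, 0.119%, which belong to 37 genes. Of these genes 16 were measured on both arrays, and 9 of the 16 were at least 2-fold higher in VA_MEF. The windows of these 9 genes are printed here, with those of Acacb and Zfp57, which hold the motif but were not 2-fold higher. All of the 9 but Xlr3c belong to the unfolded protein response list below, which was put together after the values were seen. Capitals mark the 19 bases from CCAAT to CCACG, or from CGTGG to ATTGG where the motif lies on the opposite strand.
Xlr3c: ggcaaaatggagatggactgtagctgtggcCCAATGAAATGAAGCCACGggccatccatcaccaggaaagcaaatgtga
Creld2: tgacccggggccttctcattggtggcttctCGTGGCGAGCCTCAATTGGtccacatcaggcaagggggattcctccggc
Hspa5: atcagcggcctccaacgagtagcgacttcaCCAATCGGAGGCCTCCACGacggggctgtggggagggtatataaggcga
Hsp90b1, upstream match: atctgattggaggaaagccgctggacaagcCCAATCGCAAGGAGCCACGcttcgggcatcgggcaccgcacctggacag
Hsp90b1, downstream match: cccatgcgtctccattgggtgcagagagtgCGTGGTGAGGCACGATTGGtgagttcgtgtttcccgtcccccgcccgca
Dnajc3: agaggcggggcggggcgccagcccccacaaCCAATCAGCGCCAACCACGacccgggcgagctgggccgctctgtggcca
Pdia6: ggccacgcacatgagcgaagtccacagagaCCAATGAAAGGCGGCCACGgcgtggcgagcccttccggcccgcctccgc
Syvn1: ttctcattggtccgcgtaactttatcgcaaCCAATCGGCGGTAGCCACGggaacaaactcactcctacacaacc
Calr: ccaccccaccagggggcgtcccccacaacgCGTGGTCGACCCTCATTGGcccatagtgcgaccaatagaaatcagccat
Canx: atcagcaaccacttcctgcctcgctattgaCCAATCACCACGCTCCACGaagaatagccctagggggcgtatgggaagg
Acacb: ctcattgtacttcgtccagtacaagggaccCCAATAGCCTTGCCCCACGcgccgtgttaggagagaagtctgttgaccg
Zfp57: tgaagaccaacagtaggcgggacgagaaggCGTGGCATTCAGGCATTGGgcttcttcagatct

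These stretches are printed 5′ to 3′ on each gene's own strand. They lie at chrX:73265511-73265589 (minus strand) for Xlr3c, chr15:88819490-88819568 (plus strand) for Creld2 and chr2:34771995-34772073 (plus strand) for Hspa5. The 2 matches of Hsp90b1 lie at chr10:86705608-86705686 (minus strand) and chr10:86705503-86705581 (minus strand). Those of Dnajc3, Pdia6 and Syvn1 lie at chr14:118937797-118937875 (plus strand), chr12:17266461-17266539 (plus strand) and chr19:6046502-6046575 (plus strand). Those of Calr and Canx lie at chr8:84847045-84847123 (minus strand) and chr11:50325770-50325848 (minus strand), and those of Acacb and Zfp57 at chr5:114165401-114165479 (plus strand) and chr17:37002462-37002524 (plus strand). All lie before the annotated start, in the promoter. The search was chosen after the values were seen. A match says only that these letters are present, not that a factor binds there or sets the level.

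Over all genes, 416 of 7088 were at least 2-fold higher in VA_MEF, 5.87%, and 559 were at least 2-fold lower, 7.89%. Together these are 975 genes, 13.8%. The counts of every list below are to be read beside the shares of 5.87% higher and 7.89% lower. The median difference was -0.02, with quartiles at -0.41 and 0.35, and an SD across genes of 0.79. The low side reached farther: 25 genes were at least 16-fold lower and 2 at least 16-fold higher. The correlation of VA_MEF with 3T3 was 0.65 across genes, which are not independent replicates. That value was close to the 0.65 with D6_MEL, 0.64 with the array labelled Heart and 0.63 with VA_475. The 3T3 array lay closest to VA_475, at 0.80. The deposited values also spread more widely in VA_MEF, with an SD of 1.02, against 0.844 in 3T3.

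**Figure D1:**
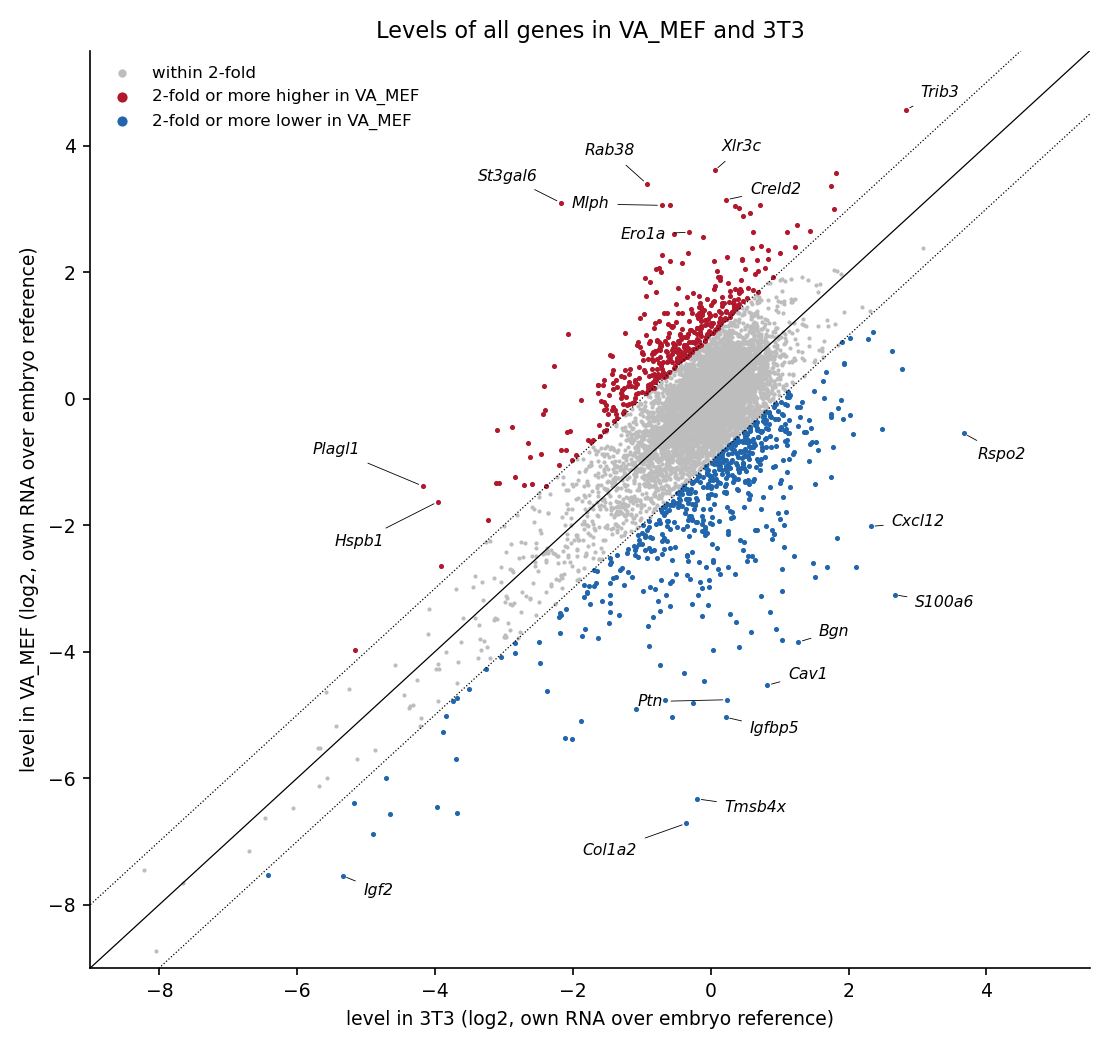
Level of each gene in VA_MEF (vertical axis) against 3T3 (horizontal axis), both log2 of own RNA over embryo reference. Red points are the 416 genes at least 2-fold higher in VA_MEF and blue points the 559 at least 2-fold lower, the solid line marks equal levels and the dotted lines mark 2-fold. The blue cloud reaches much farther from the line than the red one, down to Col1a2 and Tmsb4x.

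Where a gene had several probes, their agreement is the one check of a value within these 2 arrays. For 1802 genes with 2 or more probes, the SD between probes of the difference had a median of 0.24 and a root mean square of 0.49. Of the 184 such genes at least 2-fold apart in the mean, 179 had all probes on the same side of 0. Choosing genes by a large mean favours such agreement, so it is a weak check. All probes were at least 2-fold higher in VA_MEF for 48 genes and at least 2-fold lower for 56. This spread covers the probes only, not culture, extraction or hybridisation.

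Markers of cell types were set against the labels next. Of 20 fibroblast markers 13 were measured. Their levels ran from -6.72 to 0.16 in VA_MEF, summing to -34.3, against -3.88 to 1.06 in 3T3, summing to -6.91. Their median, -2.49 in VA_MEF, was the lowest of the 11 arrays, and the -0.34 in 3T3 was the highest. In the direction taken, the markers thus go against the fibroblast label of VA_MEF, and the array is named by its label only. With the signs as deposited, VA_MEF would have the highest median and 3T3 the lowest.

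Markers of other cell types gave no single other name. Of 13 melanocyte markers 5 were measured, and their levels summed to 2.06 in VA_MEF, the highest of the 11 arrays by median, and to -6.52 in 3T3. The 5 did not go together. In VA_MEF Rab38 stood at 3.40, Mlph at 3.06 and Rab27a at 0.71, but Kit at -1.63 and Ednrb at -3.48, the lowest of the 11 arrays. The regulators Mitf and Sox10 and the pigment genes Dct, Mlana, Pmel, Tyr and Tyrp1 had no value here. The 7 epithelial markers measured of 9 lay between -4.90 and -2.08 in VA_MEF and between -4.38 and -1.36 in 3T3. The 4 endothelial markers measured of 7 lay between -2.84 and -1.15 in VA_MEF and between -1.79 and -0.85 in 3T3. The 4 macrophage and blood markers measured of 9 lay between -8.73 and -1.32 in VA_MEF and between -8.05 and -1.45 in 3T3. The 3 neural crest and glia markers measured of 8 summed to -3.34 in VA_MEF and -3.44 in 3T3, and 0 of 7 muscle markers were measured. How far the share of any cell type shapes a difference was not tested. In bulk RNA, fewer cells of a type and less RNA per cell cannot be told apart.

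Among the lists with 4 or more measured members, the fibroblast list had the lowest median difference. Of 34 genes written for the fibroblast list 19 were measured: 14 were at least 2-fold lower in VA_MEF and 0 higher, beside 7.89% and 5.87% of all genes. Their median difference was -1.93. The median level of the list was -2.0 in VA_MEF and 0.03, close to the embryo reference, in 3T3, and lay between -1.64 and -0.67 in the other 9 arrays. VA_MEF was the lowest of the 11 arrays for 6 of the 18 members with a value on every array, against 14.4% of all genes.

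Col1a2, which encodes a chain of type I collagen, the main fibre of connective tissue, stood at -6.72 in VA_MEF and at -0.36 in 3T3. Its difference of -6.36 was the lowest of all genes, and its 2 probes gave -6.02 and -6.70. The level in VA_MEF was like those of D6_MEL at -6.57 and NRAS_MEL at -6.68, while 3T3 was the highest of the 11 arrays. Col1a1, which encodes the partner chain of the same collagen, did not follow: it stood at -0.54 in VA_MEF and 0.03 in 3T3. The probes of these 2 genes therefore disagree about type I collagen. They did so beyond these 2 arrays: over the 11 arrays Col1a1 ran from -1.52 to 0.03, and Col1a2 from -6.79 to -0.36.

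Other collagens lay lower too. Over the 17 collagen chains measured, 9 were at least 2-fold lower in VA_MEF, 0 were higher and the median difference was -1.49. Col6a1, a chain of the beaded filament collagen VI, stood at -5.03 in VA_MEF and -0.57 in 3T3. Col4a2, a chain of basement membrane collagen, stood at -4.76 in VA_MEF and -0.66 in 3T3. Its partner chain Col4a1 stood at -3.92 in VA_MEF and -0.89 in 3T3, with both probes lower, so both chains of this collagen were lower. Col5a2, of the collagen that nucleates type I fibres, stood at -2.70 in VA_MEF and 1.03 in 3T3. Col3a1 averaged -5.10 in VA_MEF and -1.88 in 3T3, but its 4 probes disagreed: 3 gave -3.58 to -5.36 and the other gave 0.38.

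The enzymes that modify collagen in the ER were nearer to 0. Plod3, a lysyl hydroxylase, stood at -0.64 in VA_MEF and 0.62 in 3T3, a difference of -1.26. The prolyl hydroxylase subunits P4ha1 and P4ha2 differed by -0.80 and 0.16. P3h2 and P4hb, which also act in prolyl hydroxylation, differed by 0.37 and 0.39, and the collagen chaperone Serpinh1 (HSP47) by -0.62. Of these 6 proteins of the ER, Plod3 alone reached 2-fold.

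Of the glycoproteins and proteoglycans of the matrix 29 were measured, and 16 were at least 2-fold lower in VA_MEF and 1 higher, with a median of -1.38. With quantile normalization that median was -0.82, and with the arrays scaled to the same spread it was -0.91. Biglycan (Bgn), a small collagen-binding proteoglycan, stood at -3.85 in VA_MEF and at 1.27 in 3T3. Mgp, matrix Gla protein, which keeps soft tissue from calcifying, stood at -3.82 in VA_MEF and at 1.03 in 3T3. Tenascin C (Tnc), a glycoprotein of developing and healing tissue, stood at -4.82 in VA_MEF, at -0.26 in 3T3 and at a median of -3.25 in the other 9 arrays. For Tnc, 3T3 lay farther than VA_MEF from the median of the other arrays, while for Bgn and Mgp VA_MEF lay farther. Ecm1, extracellular matrix protein 1, stood at -2.48 in VA_MEF, which was 2.01 below the lowest of the other 10 arrays, and at 0.54 in 3T3. Agrin (Agrn), which clusters receptors at the nerve-muscle junction, ran the other way, at -0.87 in VA_MEF and -2.46 in 3T3.

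**Figure D2:**
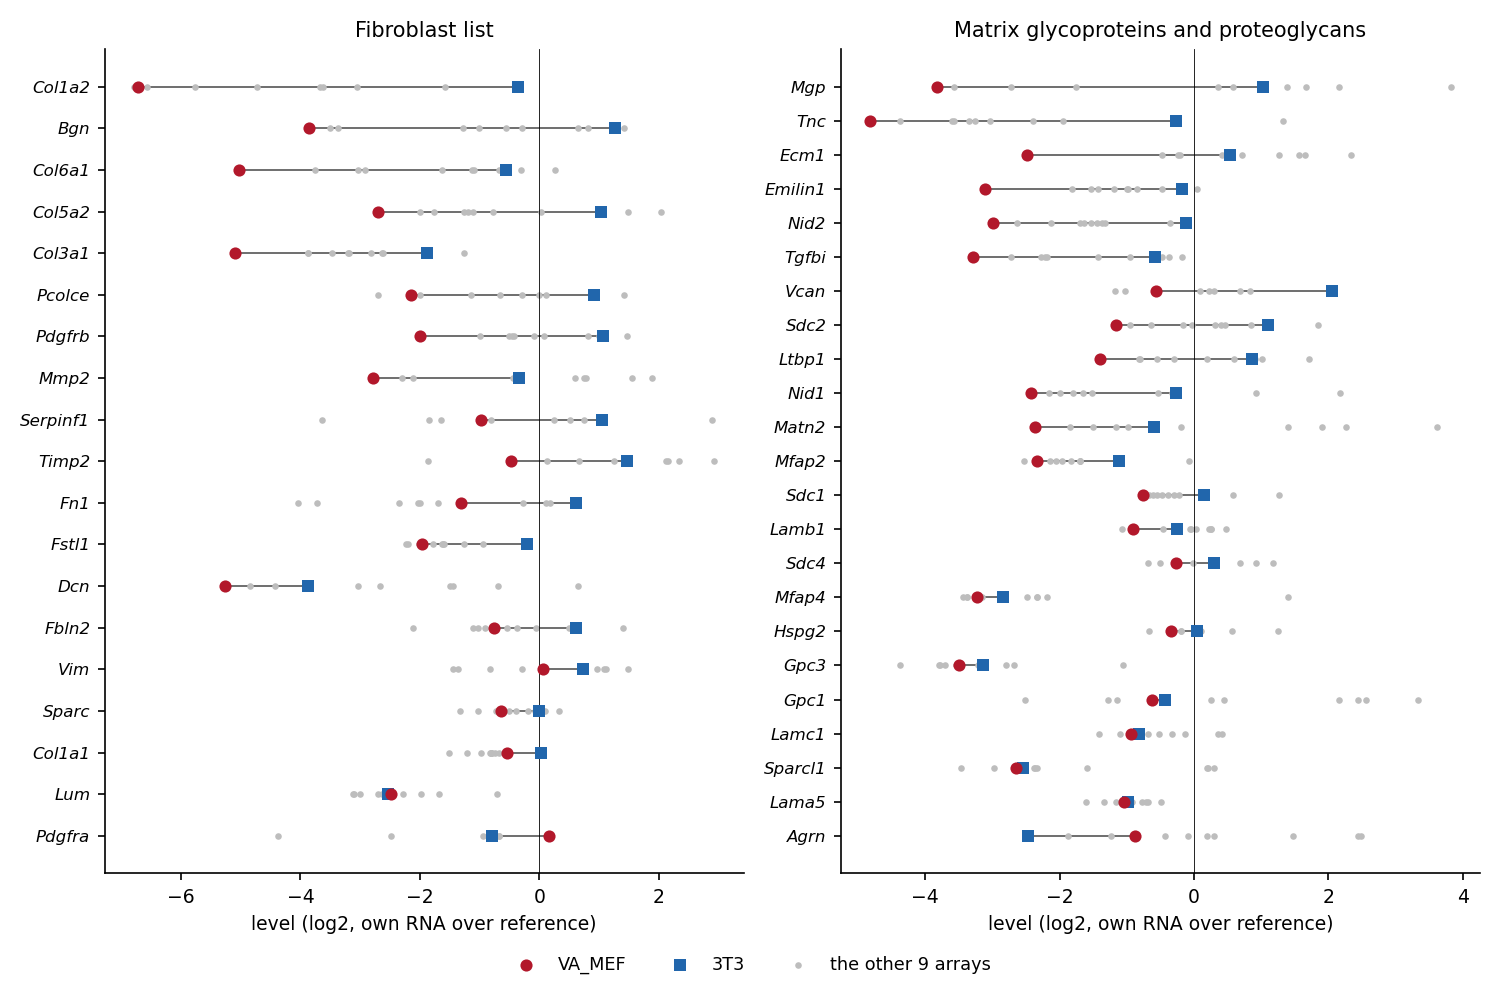
Levels (log2 of own RNA over reference) of the 19 measured genes of the fibroblast list on the left and of the matrix glycoproteins and proteoglycans not already in it on the right. Red circles are VA_MEF, blue squares 3T3 and grey points the other 9 arrays, with genes ordered by the difference. Most red circles lie at or near the low end of their row, while Pdgfra, Lum and Agrn have the red circle to the right of the blue square.

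Of 21 matrix-cutting enzymes and inhibitors measured, 8 were at least 2-fold lower in VA_MEF, 1 was higher and 12 lay within 2-fold, with a median of -0.85. Mmp2, a gelatinase, stood at -2.78 in VA_MEF and -0.34 in 3T3, and its inhibitor Timp2 at -0.47 in VA_MEF and 1.46 in 3T3. The one at least 2-fold higher was the lysosomal protease cathepsin L (Ctsl), at 0.62 in VA_MEF and -0.85 in 3T3. Among 29 integrin and adhesion genes 5 were lower and 2 higher. The gap junction protein Gja1 (connexin 43) stood at -4.90 in VA_MEF and -1.08 in 3T3. The 9 integrin chains themselves had a median difference of 0.02, and 1 of them, Itga3, was at least 2-fold lower, at -1.48. The integrin chains thus centred near 0, unlike the matrix genes.

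Of 25 growth factors and receptors 14 were at least 2-fold lower in VA_MEF and 1 higher, with a median of -1.57. That median was -1.03 with quantile normalization and -1.02 with the arrays scaled to the same spread. Among ligands, pleiotrophin (Ptn), a heparin-binding growth factor, stood at -4.76 in VA_MEF and at 0.24 in 3T3. Its median over the other 9 arrays was -3.97, and 3T3 was 3.36 above every other array. Pdgfc, a platelet-derived growth factor, stood at -2.49 in VA_MEF and 1.21 in 3T3. The chemokine Cxcl12, made by stromal cells, stood at -2.02 in VA_MEF and 2.33 in 3T3. The R-spondin Rspo2, which strengthens Wnt signalling, stood at -0.55 in VA_MEF and 3.67 in 3T3, where it was 3.68 above every other array.

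Some receptors and binding proteins of this list were lower and others were not. Fgfr1, a fibroblast growth factor receptor, stood at -4.46 in VA_MEF and -0.09 in 3T3. Pdgfrb stood at -2.0 in VA_MEF and 1.06 in 3T3, while the related receptor Pdgfra stood at 0.16 in VA_MEF and -0.79 in 3T3. The 2 PDGF receptors thus differed in opposite directions, by -3.06 for Pdgfrb and 0.95 for Pdgfra. Igfbp5, which binds insulin-like growth factors in the matrix, stood at -5.04 in VA_MEF and 0.22 in 3T3. The related binding proteins Igfbp3 and Igfbp7 differed by -0.05 and -0.04, and the receptors Fgfr2 and Kit by -0.48 and -0.29. Erbb3, a neuregulin receptor, was the member that was at least 2-fold higher, at 0.13 in VA_MEF and -1.29 in 3T3.

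Caveolae are flask-shaped pits of the plasma membrane. Both measured coat proteins were lower: Cav1 stood at -4.53 in VA_MEF and 0.82 in 3T3, and Cavin1 at -3.64 in VA_MEF and 0.94 in 3T3. In each case VA_MEF was the lowest of the 11 arrays, by 1.29 for Cav1 and 0.22 for Cavin1. Pacsin2, a membrane-bending protein that also works at caveolae, differed by 0.98 in the other direction. This group was put together after the values were seen.

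Of 22 genes of the contractile cytoskeleton 10 were at least 2-fold lower in VA_MEF and 2 higher, with a median of -0.87. Tmsb4x, thymosin beta 4, which holds actin monomers and is not in that list, stood at -6.33 in VA_MEF and -0.20 in 3T3. It lay 3.51 below the lowest of the other 10 arrays, whose levels ran from -2.82 in VA_475 to 2.67 in the array labelled Liver. The LIM protein Fhl2 stood at -2.60 in VA_MEF and 1.48 in 3T3. Tropomyosin 2 (Tpm2), which winds along actin, stood at -5.36 in VA_MEF and -2.11 in 3T3, while tropomyosin 1 (Tpm1) differed by 0.29. Mylk, the myosin light chain kinase that triggers contraction, was higher, at -0.44 in VA_MEF and -2.88 in 3T3. S100a6, a calcium-binding protein outside the list, stood at -3.10 in VA_MEF and 2.67 in 3T3, a difference of -5.77.

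Most genes of the TGF-beta and BMP list and of the MAP kinase target list lay below 0, 17 of 22 and 17 of 21, but some were higher. In the TGF-beta and BMP list 7 of 22 were at least 2-fold lower in VA_MEF and 1 higher. Pmepa1, a TGF-beta-induced feedback inhibitor, stood at -1.24 in VA_MEF and 1.74 in 3T3. Of the 3 Id factors measured, which block basic helix-loop-helix factors, Id1 and Id3 were lower, with differences of -1.58 and -1.84. Id2 was higher, at 0.19 in VA_MEF and -2.42 in 3T3, with both probes above 2.5. In the MAP kinase target list 7 of 21 were lower and 2 higher. The immediate early factor Egr1 stood at -0.48 in VA_MEF and 2.49 in 3T3, and cyclin D1 (Ccnd1) at -0.26 in VA_MEF and 2.02 in 3T3. The factor Ets1 was higher, at 2.14 in VA_MEF and -0.41 in 3T3. Of 15 Wnt pathway genes 3 were lower and 0 higher.

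Among the lists with 4 or more measured members, that of the unfolded protein response had the highest median. It was put together after the values were seen, and no test supports it. Of 51 genes written 39 were measured on both arrays: 23 were at least 2-fold higher in VA_MEF, 0 were lower, 36 lay above 0 and the median was 1.07. With the arrays scaled to the same spread the median was 0.98 and 19 were at least 2-fold higher. The list's median level was 1.20 in VA_MEF and 0.06 in 3T3. Over the other 9 arrays it lay between -0.13 and 0.74, highest in the array labelled Lung. VA_MEF was the highest of the 11 arrays for 23 of the 39, against 11.7% of all genes.

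Several chaperones and co-chaperones of the ER were at least 2-fold higher. Hspa5 (BiP), the main ER chaperone and the gene by which the ER stress element is best known, averaged 2.37 in VA_MEF and 0.60 in 3T3. Its 3 probes gave differences of 0.81, 2.17 and 2.34, and its level in the other 9 arrays lay between 0.02 and 0.91. Hsp90b1 (GRP94), the ER form of HSP90 and the one with 2 motifs in the window shown, stood at 1.79 in VA_MEF and 0.07 in 3T3, with both probes at least 2-fold higher. Dnajb11, a co-chaperone of Hspa5, stood at 2.18 in VA_MEF and 0.05 in 3T3. Dnajc3, another co-chaperone of Hspa5, stood at 1.43 in VA_MEF and -0.14 in 3T3, and its 3 probes gave 1.25 to 1.95. The lectin chaperones calreticulin (Calr) and calnexin (Canx) were higher by 1.07 and 1.0. Both fell just under 2-fold with the arrays scaled to the same spread, at 0.96 and 0.94. Others did not reach 2-fold: Hspa13 differed by 0.64, Erp44 by 0.39 and Dnajc10 by 0.08. Dnajb9 averaged 0.97, but its 2 probes disagreed, at -0.45 and 2.39.

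Proteins that form or move disulphide bonds followed in part. Ero1a, the oxidase that recharges disulphide isomerases, stood at 2.63 in VA_MEF, 2.57 above every other array, and at -0.31 in 3T3. Creld2, a disulphide-rich protein made under ER stress, stood at 3.14 in VA_MEF and 0.22 in 3T3. Pdia4 and Pdia6 were higher, by 1.63 and 1.33. Pdia3 differed by 0.90, P4hb by 0.39 and Pdia5 by -0.84, so the isomerases did not all reach 2-fold.

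Some genes for clearing or inserting ER proteins were at least 2-fold higher. Edem1, which picks out misfolded glycoproteins for destruction, stood at 1.92 in VA_MEF and 0.10 in 3T3, with both probes at least 2-fold higher. Syvn1, the ubiquitin ligase of that route, differed by 1.08, or 0.98 with the arrays scaled to the same spread. Derl1, Derl2 and Erlec1, of the same clearance route, differed by 0.68, 0.41 and 0.62. Sec61a1, the channel through which chains enter the ER, stood at 2.64 in VA_MEF and 1.10 in 3T3. The signal peptidase subunit Sec11c stood at 1.35 in VA_MEF and -0.47 in 3T3. The 4 subunits of the translocon-associated complex gave smaller differences, 0.76 for Ssr2, 0.67 for Ssr3, -0.05 for Ssr4 and -0.36 for Ssr1.

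The sensors and factors themselves differed less than several of their targets. Atf6 stood at 1.37 in VA_MEF and 0.31 in 3T3, a difference of 1.07 that was 0.93 with the arrays scaled to the same spread. Xbp1 stood at 0.35 in VA_MEF and -0.67 in 3T3. Ern1, with 4 probes from 0.32 to 1.18, averaged 0.34 in VA_MEF and -0.34 in 3T3. These are transcript levels: the splicing of Xbp1 and the cleavage of Atf6, by which these proteins become active, were not measured. On the PERK branch, Atf4 stood at 2.06 in VA_MEF and 0.79 in 3T3. Ppp1r15a (GADD34), which ends the translation block, stood at 2.06 in VA_MEF, 1.95 above every other array, and at -0.76 in 3T3.

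**Figure D3:**
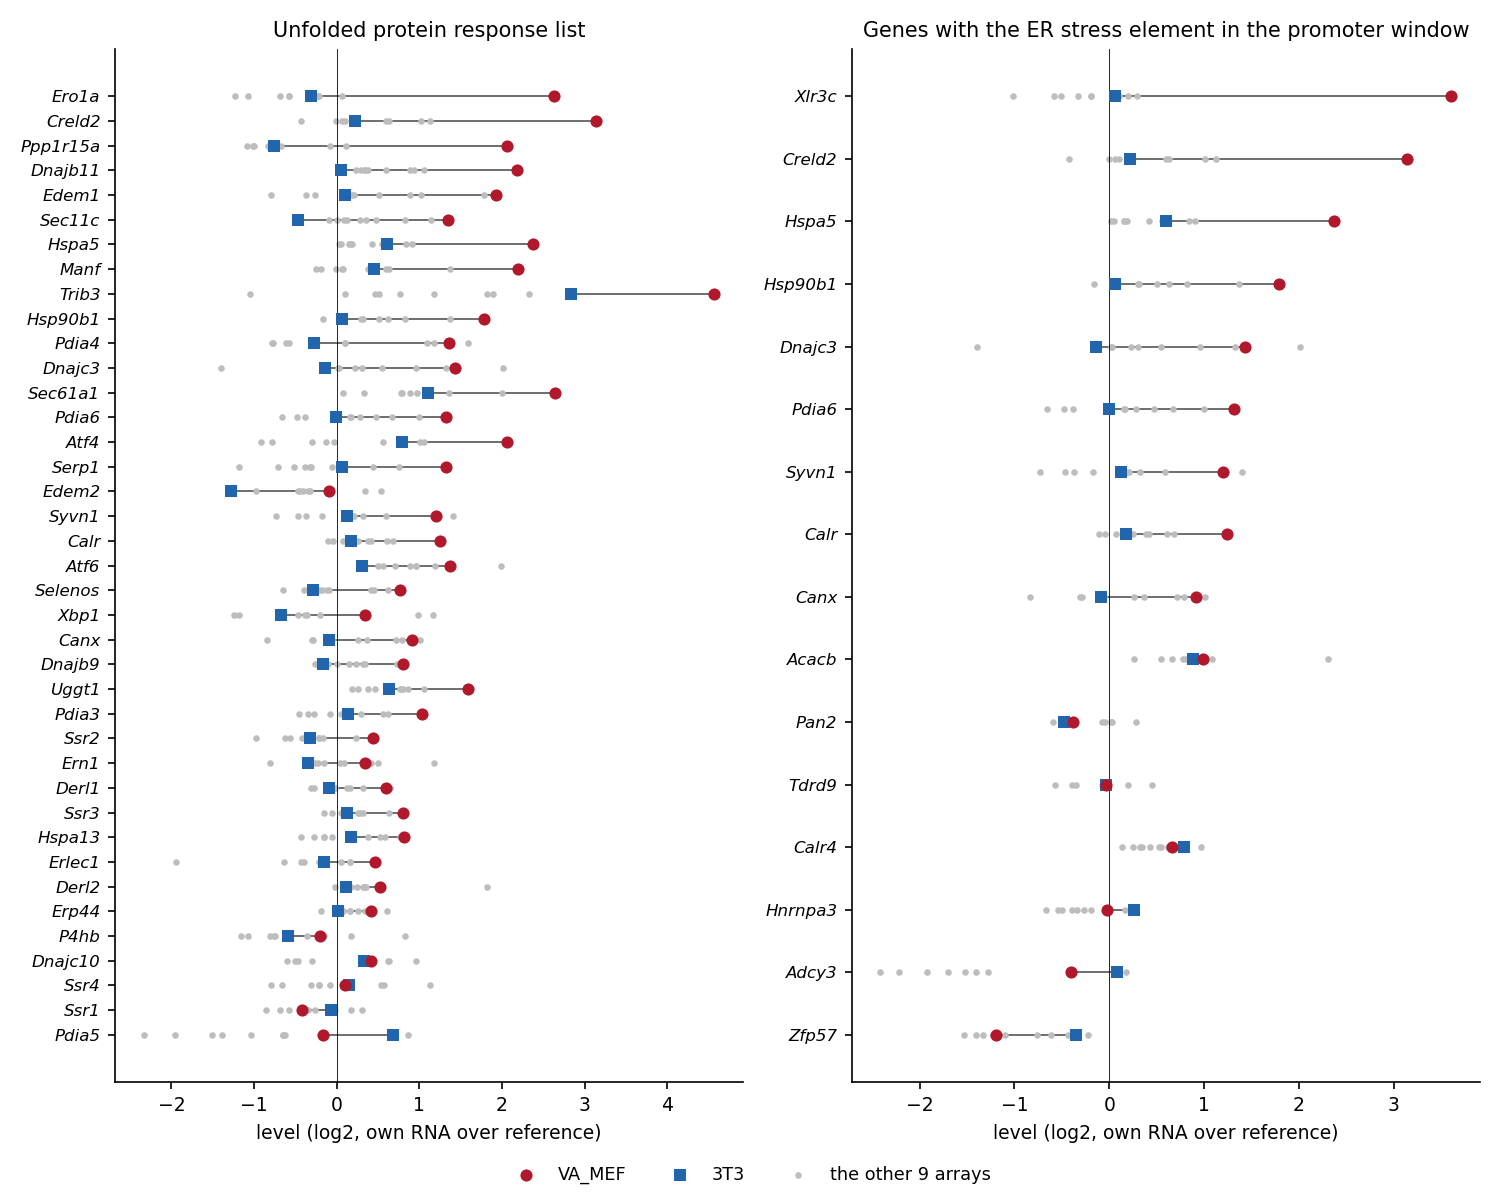
Levels (log2 of own RNA over reference) of the 39 measured genes of the unfolded protein response list on the left and of the 16 measured genes with the ER stress element in the promoter window on the right. Red circles are VA_MEF, blue squares 3T3 and grey points the other 9 arrays, with genes ordered by the difference. On the right the upper 9 genes, from Xlr3c to Canx, have the red circle 2-fold or more to the right of the blue square, and the lower 7 do not.

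The genes with the motif in the promoter fell into 2 sets. Those at least 2-fold higher were Xlr3c, Creld2, Hspa5, Hsp90b1, Dnajc3, Pdia6, Syvn1, Calr and Canx, 56.2% of the 16 measured, beside 5.87% of all genes. All but Xlr3c are members of the unfolded protein response list, so this count is not independent of that list's. Among the motif genes outside that list, Xlr3c alone was at least 2-fold higher, and the 7 named below were not. Of the 32 measured members of that list with a promoter in the table, 8 held the motif. VA_MEF was the highest of the 11 arrays for 6 of the 16, against 11.7% of all genes, and the median difference of the 16 was 1.04. With the arrays scaled to the same spread 6 of the 16 were at least 2-fold higher, and with 1 probe per gene 7. The other 7 were Acacb, Pan2, Tdrd9, Calr4, Hnrnpa3, Adcy3 and Zfp57, with differences from 0.11 for Acacb down to -0.84 for Zfp57.

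Xlr3c, of a family of X-linked lymphocyte-regulated genes, is the one of the 9 higher genes that no list here holds. It stood at 3.61 in VA_MEF, 3.32 above every other array, and at 0.06 in 3T3. The other 9 arrays lay between -1.01 and 0.29. Its motif, shown above, lies 169 to 151 bases before the start. The gene has near-identical neighbours in the same family, and a cDNA probe may not tell them apart, so the value may belong to any of them. A shorter form, ATTGG, 1 base and CCACG, was found in 12 promoter windows, 0.0365%. Among 6 such genes with values, 2 were higher by 2-fold or more, Dnajb11 by 2.13 and Krtcap2, an oligosaccharyltransferase subunit, by 1.09. In both the match lies after the annotated start, in the transcribed part.

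In the heat shock and chaperone list 10 of 40 were at least 2-fold higher in VA_MEF and 1 lower, with a median of 0.53. Of these 10, 9 work in the ER or are made under ER stress: Dnajb11, Hspa5, Manf, Hsp90b1, Pdia4, Dnajc3, Pdia6, Calr and Canx. The other was the small cytosolic chaperone Hspb1, at -1.63 in VA_MEF and -3.96 in 3T3. Its relative Hspb8 was lower, at -2.85 in VA_MEF and -0.31 in 3T3. The 7 measured subunits of the cytosolic chaperonin (Tcp1 and the Cct genes) lay between -0.60 and 0.88, with a median of -0.22. Several others outside the ER lay above 0 but within 2-fold, such as the mitochondrial chaperones Hspa9 at 0.98 and Hspd1 at 0.72 and the cytosolic Hsp90aa1 at 0.61. The 28 members of this list that are not in the unfolded protein response list had a median of 0.24, with 16 above 0, 1 at least 2-fold higher and 1 lower. The difference between these sets was not tested.

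Genes of amino acid supply that Atf4 controls were higher in number too. Of 27 measured 12 were at least 2-fold higher in VA_MEF and 2 lower, with a median of 0.73. The median level of the list was 1.56 in VA_MEF and 0.72 in 3T3, and both stood in the upper part of the range of the 11 arrays, whose lowest was -0.54. Atf3, a stress-induced partner of Atf4, stood at 2.0 in VA_MEF and -0.73 in 3T3. Slc1a5, a glutamine carrier, stood at 1.62 in VA_MEF and -0.94 in 3T3. Mthfd2, of the mitochondrial folate path, stood at 3.57 in VA_MEF and 1.81 in 3T3. Trib3, a target of Atf4 that feeds back on it, stood at 4.57 in VA_MEF and 2.83 in 3T3, the 2 highest of the 11 arrays. With quantile normalization its difference was 0.91, under 2-fold.

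Within serine synthesis the 3 enzymes did not agree. Psph, the last step, was higher by 1.21, Phgdh, the first, differed by 0.21, and Psat1, between them, differed by -1.25. Of 7 cytosolic tRNA synthetases measured 6 lay above 0, 1 was at least 2-fold higher (Eprs, 1.21) and Aars lay at -0.98. Asns, asparagine synthetase, stood at 2.99 in VA_MEF and 1.79 in 3T3.

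Genes of sugar use under low oxygen and of redox defence gave a mixed account. Of 29 glycolysis and hypoxia genes 7 were at least 2-fold higher in VA_MEF and 0 lower, with a median of 0.28. Besides Ero1a these included Ndrg1, at -0.92 in VA_MEF and -2.63 in 3T3, and the glycolytic enzyme Pgk1, at 1.53 in VA_MEF and 0.27 in 3T3. In the oxidative stress list 8 of 34 were higher and 7 lower. Hmox1, which breaks down haem, stood at 3.06 in VA_MEF, 2.35 above every other array, and at 0.71 in 3T3. Catalase (Cat) stood at -0.17 in VA_MEF and -2.41 in 3T3. Gsta4, a glutathione transferase, ran the other way, at -3.46 in VA_MEF and -0.84 in 3T3. Txnip, the inhibitor of thioredoxin, stood at -4.62 in VA_MEF, 2.24 below every other array, and at -2.38 in 3T3.

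Among 14 measured melanocyte and melanosome genes, 3 were higher in VA_MEF by 2-fold or more and 0 lower, with a median of 0.38. Rab38, a GTPase that brings pigment enzymes to melanosomes, stood at 3.40 in VA_MEF, 3.09 above every other array, and at -0.93 in 3T3. Mlph (melanophilin), which ties melanosomes to their myosin motor, stood at 3.06 in VA_MEF and -0.71 in 3T3. For Mlph, VA_MEF was not alone: D6_MEL stood at 3.18, the array labelled Heart at 2.94, NRAS_MEL at 2.55 and HRAS_MEL at 2.36. Rab27a, the GTPase that recruits Mlph, stood at 0.71 in VA_MEF and -0.44 in 3T3. The motor Myo5a differed by 0.27, so of the 3 proteins of this transport complex 2 were at least 2-fold higher. The receptors Kit and Ednrb differed by -0.29 and -0.38. Among 28 Rab GTPases measured, Rab38, Rab6a and Rab27a were at least 2-fold higher and 0 were lower, beside 5.87% and 7.89% of all genes. The median of the 28 was -0.02, with 15 below 0.

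The other genes with the highest differences belong to no single list. St3gal6, which adds sialic acid to glycans, had the highest of all, at 3.10 in VA_MEF and -2.18 in 3T3. VA_MEF was 1.65 above every other array, and 3T3 lay at -1.91 from the median of the other 9. Syngr1, a vesicle membrane protein, stood at 3.06 in VA_MEF and -0.58 in 3T3. Irf3, which switches on interferon genes, stood at 1.02 in VA_MEF and at -2.08 in 3T3, the lowest of the 11 arrays. Adgrg1, an adhesion receptor, stood at 0.52 in VA_MEF and -2.27 in 3T3. For Irf3 and Adgrg1, 3T3 departed farther from the other arrays than VA_MEF did.

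Counting all genes, VA_MEF was more often the array that departed. Of the 411 genes at least 2-fold higher and measured on every array, VA_MEF lay farther than 3T3 from the median of the other 9 in 274, 66.7%. Of the 546 lower ones it did so in 382, 70.0%. VA_MEF lay beyond all the other 10 arrays in 178 of the higher and 287 of the lower genes, and 3T3 in 94 and 95. Over all 7035 genes with 11 values, VA_MEF was the highest array in 11.7% and the lowest in 14.4%. The deposited values of VA_MEF had the widest spread of the 11 arrays, an SD of 1.02, and these counts do not allow for it. The other 9 arrays also include VA_475, to which 3T3 lay closest, at a correlation of 0.80.

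**Figure D4:**
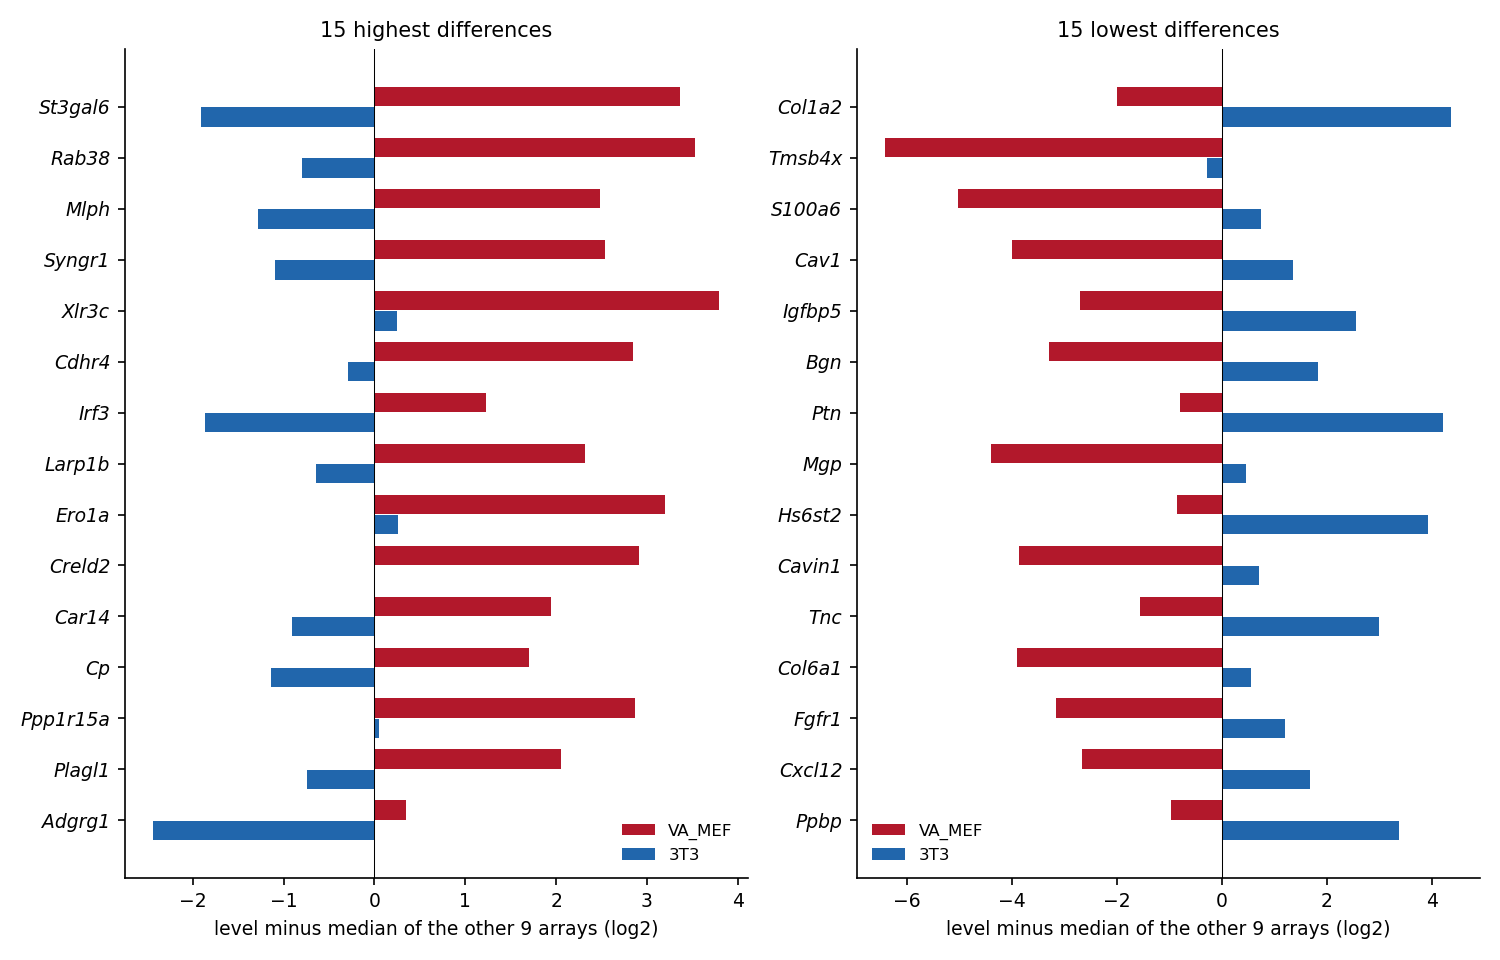
Level minus the median of the other 9 arrays (log2) for the 15 genes with the highest differences on the left and the 15 with the lowest on the right. Red bars, the upper of each pair, are VA_MEF and blue bars are 3T3. VA_MEF has the longer bar for most genes, while 3T3 has it for Irf3, Adgrg1, Col1a2, Ptn, Hs6st2, Tnc and Ppbp.

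Among the genes farthest below every other array in VA_MEF were Ttc9c, at -3.92 in VA_MEF and 0.41 in 3T3, and Zfp217, a zinc finger factor, at -3.27 in VA_MEF and -0.03 in 3T3. Each rests on 1 probe. Genes with several agreeing probes rest on more. Cdhr4, a cadherin-related gene, was higher by 3.05 and 3.22 on its 2 probes. Rrm2b, a p53-induced subunit of ribonucleotide reductase, was higher by 2.44 and 2.82. Kdm7a, a histone demethylase, was higher by 1.65 to 2.01 on 3 probes. On the low side, the probes of Hs6st2, which sulphates heparan sulphate, gave differences of -4.59 and -4.95. Those of Palld (palladin), an actin-binding protein, gave -2.88 and -2.93. The 3 probes of Marcks, a membrane-bound actin regulator, gave -2.67 to -2.94. These genes were named because every probe lay at least 2-fold to the same side, so the agreement of their probes follows from the choice. It was not equally close in all genes so chosen: the 2 probes of Flrt2, also lower, gave -3.93 and -1.83.

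Genes of DNA replication and mitosis were lower by a small and widespread shift. Of 40 replication genes 34 lay below 0, 5 were at least 2-fold lower in VA_MEF and 1 higher, with a median of -0.42. Of 43 mitosis genes 38 lay below 0, 11 were lower and 0 higher, with a median of -0.40. Tk1, thymidine kinase of S phase, stood at -2.07 in VA_MEF and 0.64 in 3T3. Birc5 (survivin) stood at -0.95 in VA_MEF and 0.73 in 3T3, Cdk1 at -0.76 in VA_MEF and 0.87 in 3T3, and Plk1, a mitotic kinase, at -0.76 in VA_MEF and 0.81 in 3T3. The median level of the mitosis list was -0.28 in VA_MEF and 0.40 in 3T3, against -1.58 to -1.01 in the arrays labelled Kidney, Liver, Lung and Melan A. It was 0.04 to 0.54 in NRAS_MEL, D6_MEL, HRAS_MEL and VA_475 and close to 0 in the array labelled Heart. VA_MEF thus lay below 3T3 and these 5 arrays, and above the other 4.

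Of 11 cholesterol genes 5 were at least 2-fold lower in VA_MEF and 0 higher, with a median of -0.83. Fdft1 (squalene synthase) stood at -2.30 in VA_MEF and 0.02 in 3T3. Lss, Sqle and Idi1, which act before and after it in the same path, differed by -1.52, -1.36 and -1.28. Hmgcs1, an early enzyme of the path, differed by 0.43. Of 29 genes of fatty acids and lipids 4 were higher and 3 lower. Abca1, which exports cholesterol, was among the lower, at -0.77 in VA_MEF and 1.77 in 3T3.

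Large sets of housekeeping genes had median differences near 0. All 74 cytosolic ribosomal protein genes lay within 2-fold, between -0.77 and 0.66, with a median of 0.07. Of 62 oxidative phosphorylation genes 4 were higher and 2 lower, with a median of 0.01. Of 40 proteasome genes 1 was higher and 1 lower, with a median of -0.12. The lysosome list was less even: of 36 genes 7 were higher and 1 lower, beside 5.87% and 7.89% of all genes, with a median of 0.19. Its median level was -0.09 in VA_MEF and -0.501 in 3T3, the lowest of the 11 arrays, with VA_475 almost level at -0.497. Neu1, the lysosomal sialidase, had the highest difference of the lysosome list, at 0.29 in VA_MEF and -1.54 in 3T3, with both probes higher.

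**Figure D5:**
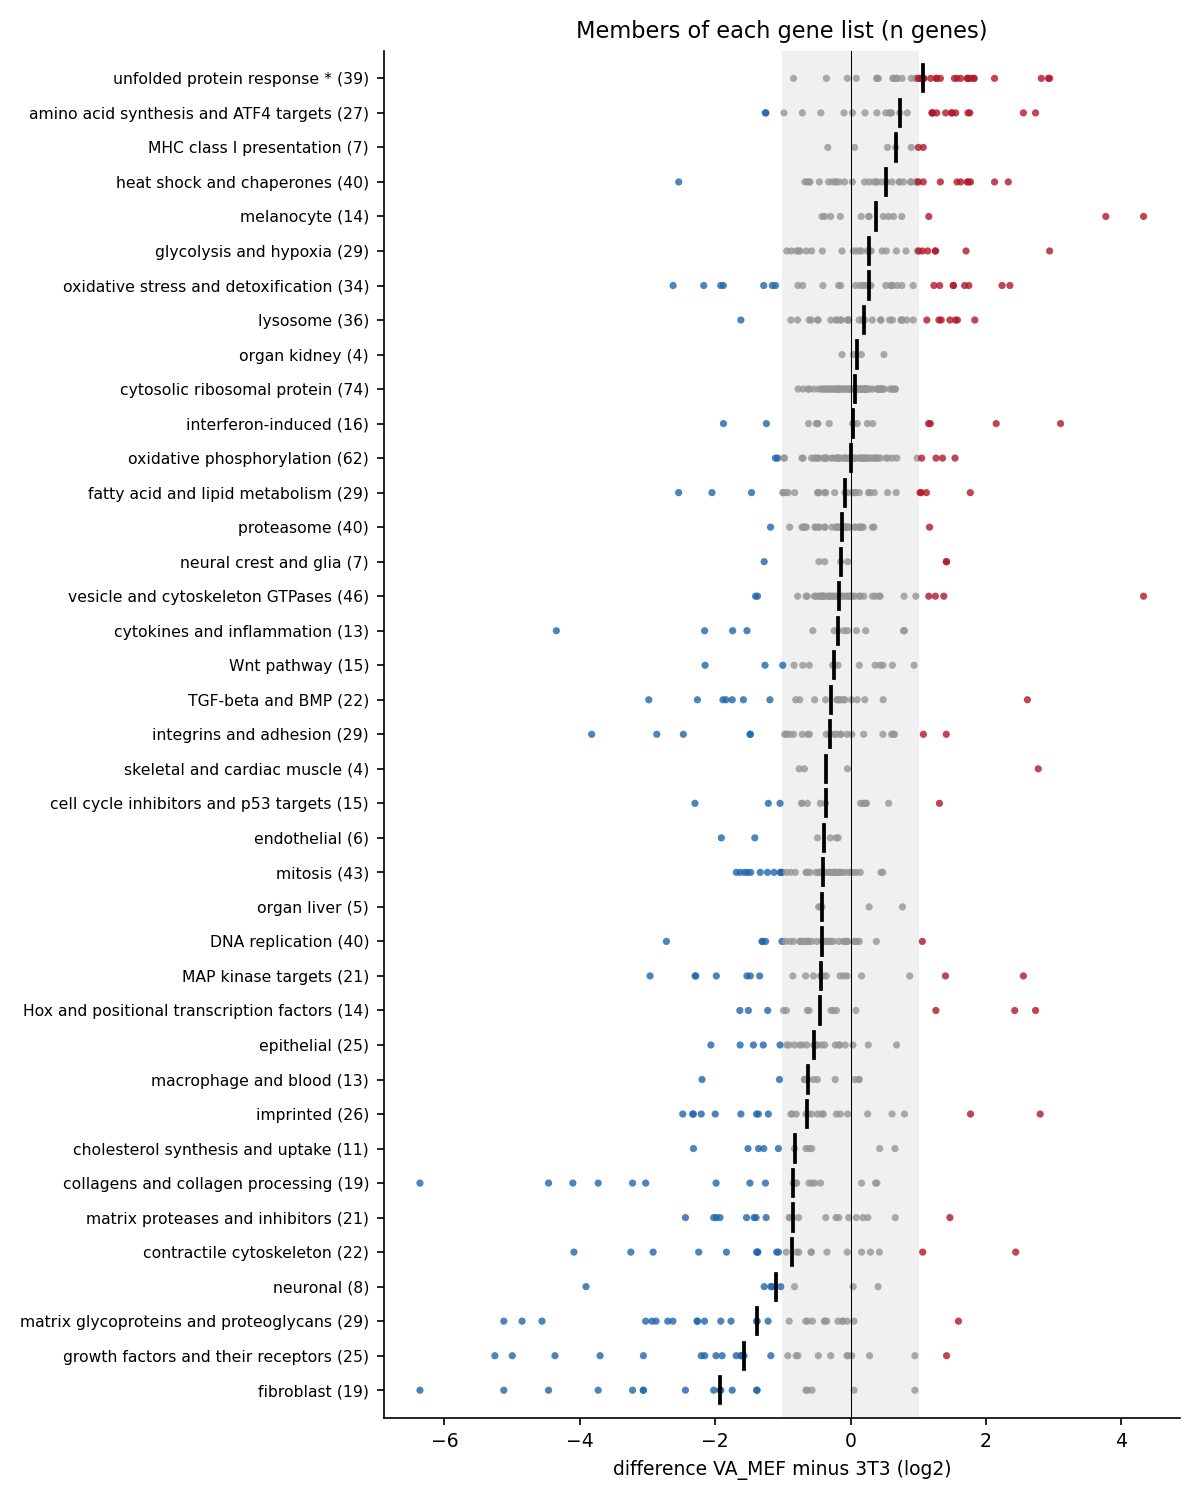
Difference VA_MEF minus 3T3 (log2) of every measured member of each gene list with 4 or more members, lists ordered by their median from high at the top to low at the bottom. Points are genes, red where at least 2-fold higher in VA_MEF, blue where at least 2-fold lower and grey within 2-fold (shaded), black ticks are list medians, the number of genes stands in brackets and the asterisk marks the list put together after the values were seen. The unfolded protein response stands at the top with a median of 1.07 and the fibroblast list at the bottom with -1.93, while the ribosomal list stays inside the shaded band.

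Epithelial and blood genes were low on both arrays. Of 25 epithelial genes 5 were at least 2-fold lower in VA_MEF and 0 higher, with a median level of -2.73 in VA_MEF and -1.85 in 3T3. The median difference was -0.54, and 0.06 with quantile normalization, so its sign rests on the scaling. Hbb-b1, the adult haemoglobin chain, stood at -8.73 in VA_MEF and -8.05 in 3T3. Haemoglobin is abundant in embryos, from which the reference was made. Signal intensities were not analysed here, so whether a gene this low was above background on either array is unknown. Of 26 imprinted genes 9 were lower and 2 higher, several of them in this low range. Igf2, the fetal growth factor, stood at -7.55 in VA_MEF and -5.34 in 3T3. H19, its noncoding neighbour, averaged -6.46 in VA_MEF and -3.98 in 3T3, and its 7 probes gave differences from -1.28 to -3.79. Plagl1, an imprinted zinc finger factor, ran the other way, at -1.38 in VA_MEF and -4.18 in 3T3.

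The remaining lists were small or mixed. Of 8 neuronal genes 5 were at least 2-fold lower in VA_MEF and 0 higher, among them Basp1, a growth cone protein, at -3.54 in VA_MEF and 0.37 in 3T3. The median difference of that list, -1.10, was -0.43 with quantile normalization and -0.69 with the arrays scaled to the same spread. Of 13 cytokine and inflammation genes 4 were lower and 0 higher, of 6 endothelial genes 2 and 0, and of 13 macrophage and blood genes 2 and 0. Of 7 neural crest and glia genes 1 was lower and 2 were higher, Erbb3 and the adhesion molecule Mcam, at 0.16 in VA_MEF and -1.25 in 3T3. Of 15 cell cycle inhibitors and p53 targets 3 were lower and 1 higher. The lower ones included Gadd45g, a stress-induced gene, at -1.28 in VA_MEF and 1.02 in 3T3. The higher one was Mdm2, the ubiquitin ligase of p53, at 1.24 in VA_MEF and -0.08 in 3T3, and its 2 probes gave 1.30 and 1.33. Of 46 small GTPases 4 were higher and 2 lower, beside 5.87% and 7.89% of all genes.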

How the data were processed

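RNA of 11 mouse samples was measured on 2-colour cDNA arrays, 1 per sample. The table deposited by the authors holds log ratios, taken as log2, for 15247 probes; 15204 had a value on VA_MEF and 15210 on 3T3. The sources used here do not give the base of the logarithm, the direction, the background correction or the normalization. From the values, column medians were already close to 0. Per the labels, own RNA was in Cy3 and the reference in Cy5.

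Signs were turned, the median of each array was set to 0 and probes of 1 symbol were averaged, in Python 3.11.15 with pandas 2.3.3. Of the probes 9600 had 1 symbol in the platform's annotation, 214 several and 5433 none; 9492 were found in RefSeq (GRCm38.p6) and 0 renamed. With 1 array per group there was no test. Genes with a difference of 1 or more (2-fold) either way were counted over all genes. They were also counted in the 39 gene lists with 4 or more measured members, 1 of them added after the values were seen. The counting was tested on simulated data.

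Genes named are the 15 highest and lowest differences, 10 each way with every probe 2-fold apart, the 4 largest of each list, 6 each way in which VA_MEF or 3T3 lay farthest beyond the other arrays, and all measured markers. Others named were chosen after their values were seen. The members and lists were chosen with earlier results of these data known; the unfolded protein response and caveolae lists and the promoter search were added after the values were seen. Alternatives changed the centring, scale, probe averaging, gene filter and log base.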

Additional observations from a re-analysis of the deposited data

How the results depend on the processing

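The number of genes at least 2-fold apart was 975 (416 higher in VA_MEF, 559 lower) and lay between 932 and 1052 without centring, with quantile normalization, with the arrays scaled to the same spread (median absolute deviation), with the median over probes and with 1 probe per gene. With quantile normalization the split was 499 higher and 508 lower. Keeping only genes with 2 or more probes gave 182 of 1802 (88 higher, 94 lower), 10.1% against 13.8% of all genes. Many genes named above, such as Cav1, Bgn, Fgfr1, Creld2, Ero1a and Mlph, rest on 1 probe. Natural logarithms and counting by probe moved the counts by their construction. Natural logarithms gave 1830 (795 higher, 1035 lower). Counting all probes one by one, chosen after seeing the data, gave 1851 of 15181 probes (850 higher, 1001 lower). Among 252 named genes, Col3a1 changed sign with 1 probe per gene, to 0.38, because that probe disagrees with the other 3, and Perp changed sign with quantile normalization, to 0.061; the cause was not tested. Of 39 list medians, those of neural crest and glia (0.03), fatty acids (0.15), epithelial (0.06), macrophage and blood (0.01) and organ liver genes (0.51) were above 0 with quantile normalization and below 0 otherwise, except that with the arrays scaled to the same spread neural crest and glia (0.03), fatty acids (0.07) and organ liver (0.67) were also above 0. The neuronal median of -1.10 was -0.43 with quantile normalization and -0.69 with equal spread. The fibroblast list held 13 or 14 genes at least 2-fold lower under each of the 5 settings run on it, and the unfolded protein response list 19 to 23 higher. Low genes moved most: with quantile normalization Dcn was -0.27 in place of -1.39 and Cdkn1c -0.10 in place of -1.22. No paired analysis was possible because each group has 1 array and no test was run. The number of arrays limits the precision, and signal over background is unknown.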

Other observations

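Genes of interferon and antigen presentation were not described above. Of 16 interferon-induced genes 4 were at least 2-fold higher in VA_MEF and 2 lower, beside 5.87% and 7.89% of all genes, with a median difference of 0.04. Bst2 (tetherin), which holds budding virus at the cell surface, stood at 0.69 in VA_MEF and -1.46 in 3T3. Ifitm3, which blocks virus entry, ran the other way, at -0.53 in VA_MEF and 1.35 in 3T3. Of 7 genes of MHC class I presentation 2 were higher and 0 lower, and both, Calr and Canx, are also ER chaperones. B2m, the light chain of class I molecules, differed by 0.66 and the peptide carrier Tap2 by 0.55.

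Transcription factors that mark body position differed in both directions. Among 14 measured Hox and related genes, 3 were higher in VA_MEF by 2-fold or more and 3 lower. Hoxb8 stood at 1.85 in VA_MEF and -0.88 in 3T3, and Alx1, a factor of head mesenchyme, at 2.89 in VA_MEF and 0.47 in 3T3. Hoxb3 stood at -1.04 in VA_MEF and 0.47 in 3T3, and Tbx3, a limb and mammary factor, at -1.31 in VA_MEF and 0.32 in 3T3. Hoxb8 and Hoxb3, which lie in the same Hox cluster, thus differed in opposite directions.

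Grouped by chromosome, a view chosen after the values were seen, the medians were not all alike. Chromosome 6 stood highest: its 346 genes had a median difference of 0.27. Of them 14.2% were at least 2-fold higher in VA_MEF and 4.62% lower, beside 5.87% and 7.89% of all genes. A raised median level on chromosome 6 was not particular to VA_MEF. It was 0.21 in VA_MEF, 0.17 in D6_MEL, 0.16 in the array labelled Heart and 0.11 in VA_475, and between -0.11 and 0.01 in 3T3 and the remaining arrays. Relative to the other 9 arrays the same genes had a median of 0.13 in VA_MEF and -0.09 in 3T3. Chromosome 19 stood lowest, with a median of -0.25 over 253 genes, 3.95% of them higher and 12.3% lower, and chromosome 10 followed at -0.22 over 341 genes. Of the 20 chromosomes with 100 or more genes the remaining ones lay between -0.15 and 0.12. Copy number was not measured, and whether it moves with these medians was not tested.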
